A study of Oryza sativa with 6 samples.

Results

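NAC proteins are a large plant family of transcription factors that share a conserved DNA-binding domain, and several rice members control how leaves age and how they meet drought, salt and cold. The 7 loci described here are listed as rice NAC genes of leaf senescence and stress. They were picked out by locus number and gene name, from a list drawn up with earlier results of these data known, and make up 7 of the 57839 loci in the count table. All 7 were abundant enough to be tested, among 23074 tested loci. The list pairs OsNAP with LOC_Os03g21060, OsNAC2 with LOC_Os04g38720, SNAC1 with LOC_Os03g60080, OsNAC5 with LOC_Os11g08210, OsNAC6 (also called SNAC2) with LOC_Os01g66120, OsNAC10 with LOC_Os11g03300, and a further NAC gene, listed only as ONAC, with LOC_Os01g60020. By these numbers, OsNAP and SNAC1 lie on chromosome 3, OsNAC6 and ONAC on chromosome 1, OsNAC5 and OsNAC10 on chromosome 11, and OsNAC2 on chromosome 4.

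The leaves came from osatg5-1 plants, a rice line mutant in the autophagy gene OsATG5, and from wild-type plants (WT), with 3 RNA libraries per genotype. Both genotypes grew in a paddy field under natural long days, and mature leaves were frozen at tillering, the stage at which side shoots form. The labels give neither the type of mutation, nor the cultivar, nor whether osatg5-1 is a single line, and they do not say whether replicates were separate plants. By its title, the study concerns the control of flowering by autophagy; the transcript of OsATG5 itself was not analysed here, since the files pair no locus with that name. Autophagy carries cell constituents to the vacuole for breakdown, and plants that lack it are known, above all from Arabidopsis, for early leaf yellowing. NAC factors of the NAP type promote leaf yellowing: in rice, OsNAP responds to abscisic acid and switches on genes that break down chlorophyll. Library totals were 31296258 to 39351357 counts in osatg5-1 and 30927816 to 31677943 in WT, and the NAC loci held between 60 and 22969 counts in a library.

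Among the 7 NAC genes, the transcript of OsNAP was lower in mutant leaves and that of OsNAC10 was higher, while 5 did not pass the test. Thus 2 of 7 (28.6%) were called, 1 in each direction, where 16.4% of all tested loci were called, 8.23% higher and 8.21% lower in osatg5-1 (edgeR quasi-likelihood test with Benjamini-Hochberg adjustment, adjusted p under 0.05, n = 3 per genotype). OsNAP and OsNAC10 were also the only members whose libraries did not overlap between the genotypes, or 28.6% of the 7, where 35.4% of all tested loci did not overlap. The median log2 fold change was 0.04 over the 7 genes and 0.00162 over all tested loci. In all, 1899 loci were higher and 1894 lower, or 2284 and 1431 with limma on log2(FPKM + 1), so the balance of directions differed between these settings.

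**Figure D1:**
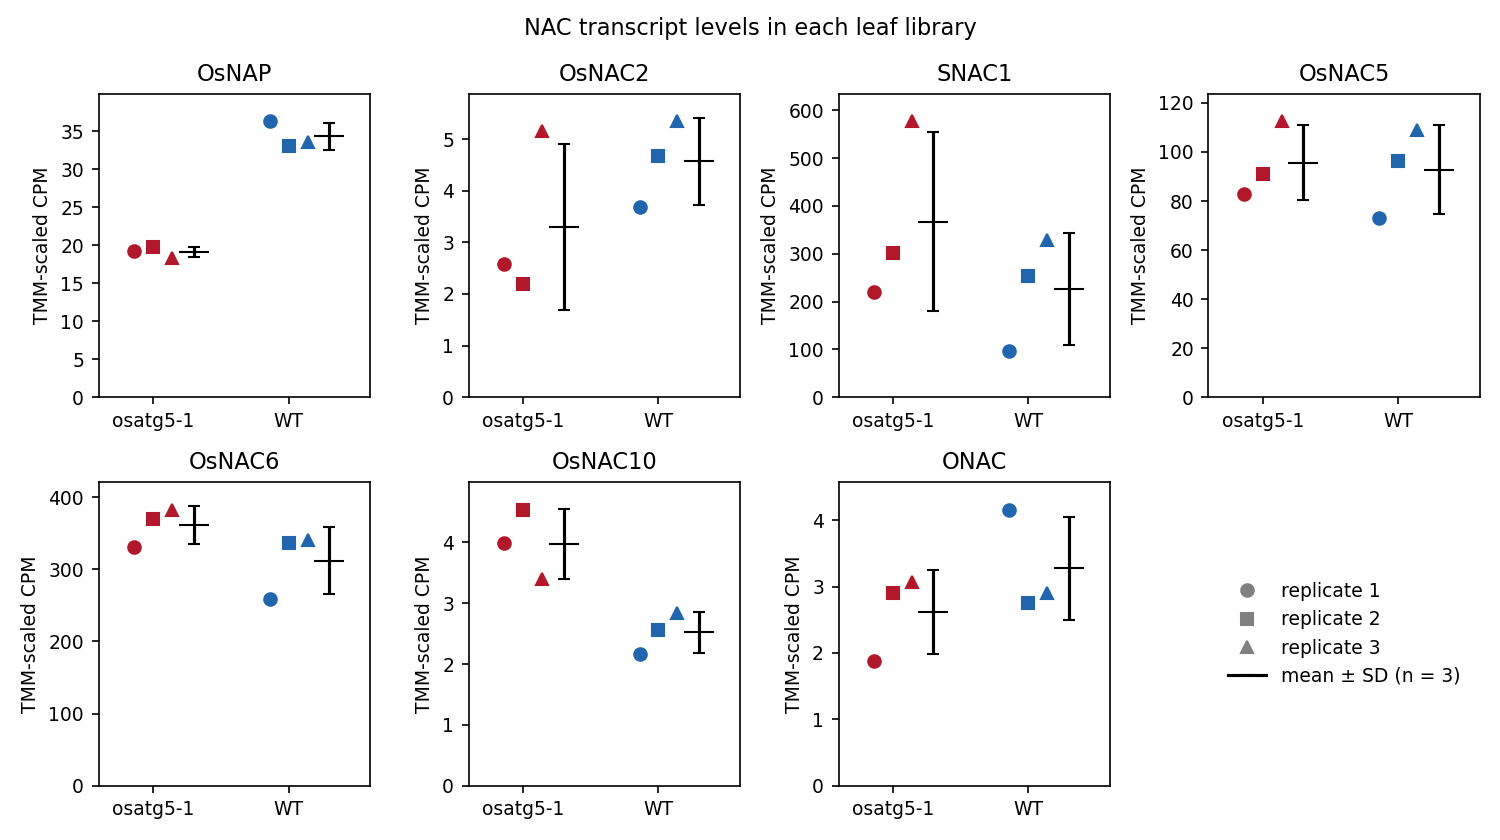
Transcript level of each NAC gene in TMM-scaled CPM, counts relative to library size (linear axes starting at 0), with osatg5-1 left of WT, 1 symbol per library and the mean with SD (n = 3) beside them. The OsNAP libraries lie at 18.3 to 19.7 CPM in osatg5-1 and 33.0 to 36.3 CPM in WT, whereas the SNAC1 libraries of the genotypes overlap.

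OsNAP, the NAC factor known for driving leaf senescence in rice, was the member with the clearest difference, and it was lower in the autophagy mutant. Its level was 19.2, 19.7 and 18.3 CPM in the osatg5-1 libraries, against 36.3, 33.0 and 33.6 CPM in the WT libraries (CPM are counts relative to library size, adjusted between libraries by the TMM method). Every mutant library was below every WT library, and the gap between genotypes was far wider than the spread within either. The means were 19.1 ± 0.706 CPM in osatg5-1 and 34.3 ± 1.78 CPM in WT (SD, n = 3 each). OsNAP was 1.80-fold lower in osatg5-1. Its log2 fold change was -0.85 ± 0.08 (SE), with a 95% interval of -1.02 to -0.67 (edgeR adjusted p = 9.64e-05; intervals, here and below, are not adjusted for the number of loci). In whole leaves, fewer cells with the transcript and less of it per cell cannot be told apart. The fall exceeded the median fall of 1.52-fold among the called lower loci. By size of change in either direction, however, OsNAP was only at rank 1445 of the 3793 called loci. The call held with each of the 6 libraries left out, at log2 fold changes of -0.87 to -0.80.

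The other senescence factor of the list, OsNAC2, did not pass the test. OsNAC2 is known in rice to promote leaf ageing and abscisic acid responses and to affect plant height. It was at 2.58, 2.19 and 5.15 CPM in osatg5-1, against 3.68, 4.67 and 5.35 CPM in WT. The replicate 3 library of the mutant stood at the WT level, and the other two mutant libraries were below all WT libraries. The log2 fold change was -0.46 ± 0.30 (SE), with a 95% interval of -1.13 to 0.21 (edgeR adjusted p = 0.35). Without osatg5-1 replicate 3 it was -0.93 and passed the test (edgeR adjusted p = 0.0306). Leaving out the mutant library at the WT level was bound to widen the difference. With any other single library left out, OsNAC2 was not called, at log2 fold changes of -0.59 to -0.22.

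Of the 4 factors known for stress tolerance, only OsNAC10 passed the test, and its call was close to the threshold. OsNAC10 is known in rice for drought tolerance when expressed in roots. Its transcript was rare in these leaves, at 3.99, 4.54 and 3.39 CPM in osatg5-1, against 2.16, 2.56 and 2.84 CPM in WT. All mutant libraries lay above all WT libraries, on 127, 166 and 135 counts in osatg5-1 against 68, 80 and 86 in WT. The mutant level was 1.58-fold that of WT. On the log2 scale the change was 0.66 ± 0.19 (SE), with a 95% interval of 0.23 to 1.09 (edgeR adjusted p = 0.0442). The call was lost without osatg5-1 replicate 1 (log2 fold change 0.66, edgeR adjusted p = 0.0946) and without osatg5-1 replicate 2 (0.56, edgeR adjusted p = 0.14). It was also lost without WT replicate 1 (0.56, edgeR adjusted p = 0.13) and without WT replicate 2 (0.67, edgeR adjusted p = 0.10), and with limma-voom on all libraries (0.65, adjusted p = 0.0518), and it held without either library numbered 3. The short-arm end of chromosome 11, where the low locus number places OsNAC10, is known as a recently duplicated stretch of the rice genome. The labels do not say how reads shared by near-identical copies were counted. The sources used here pair no copy with OsNAC10, so the level of a copy is not set beside it. A rise particular to OsNAC10 is therefore not shown.

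SNAC1, known from rice guard cells, where it promotes closure of stomata under drought, varied more between libraries of the same genotype than almost any other abundant locus. It was at 220.2, 302 and 577 CPM in the osatg5-1 libraries, against 96.8, 254 and 328 CPM in the WT libraries. The highest library exceeded the lowest 2.62 times within osatg5-1 and 3.39 times within WT, and the genotypes overlapped. The means were 367 ± 187 CPM in osatg5-1 and 226 ± 118 CPM in WT (SD, n = 3 each). With a log2 fold change of 0.70 ± 0.42 (SE) and a 95% interval of -0.23 to 1.62, a difference was not detected (edgeR adjusted p = 0.30). The interval spans from a 0.854-fold to a 3.08-fold level in the mutant, so it leaves out larger falls but not a sizeable rise. Without osatg5-1 replicate 3 the log2 fold change was 0.22, and without WT replicate 3 it was 1.06, neither of which passed the test (edgeR adjusted p = 0.78 and 0.15).

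OsNAC6, a factor known to raise tolerance of dehydration, salt and blast disease in rice, did not pass the test, and averaged 361 ± 26.8 CPM in osatg5-1 and 312 ± 46.3 CPM in WT (SD, n = 3 each). It was at 331, 369.8 and 383 CPM in osatg5-1, against 258, 336 and 340.4 CPM in WT. The groups overlapped, since the lowest mutant library was below the upper WT libraries. The log2 fold change of 0.21 ± 0.11 (SE) had a 95% interval of -0.02 to 0.45 and was not called (edgeR adjusted p = 0.21). Any rise in mutant leaves beyond 1.37-fold, or fall to less than 0.983-fold, lies outside that interval.

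OsNAC5, which is induced by abscisic acid and drought and is linked in rice to ageing leaves and the loading of minerals into grain, gave the smallest difference of the list. Its libraries were at 83.0, 91.1 and 113 CPM in osatg5-1, against 73.3, 96.3 and 109 CPM in WT. The ranges of the genotypes overlapped almost fully. The log2 fold change was 0.04 ± 0.15 (SE), with a 95% interval of -0.28 to 0.37, or 0.823-fold to 1.29-fold (edgeR adjusted p = 0.88).

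ONAC, the list's member without a number in its name, did not pass the test either. It was at 1.89, 2.90 and 3.07 CPM in osatg5-1, against 4.16, 2.75 and 2.91 CPM in WT. The lowest of the 6 libraries was osatg5-1 replicate 1 and the highest WT replicate 1, and the other libraries lay close together. The log2 fold change was -0.32 ± 0.25 (SE), with a 95% interval of -0.87 to 0.23 (edgeR adjusted p = 0.43).

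**Figure D2:**
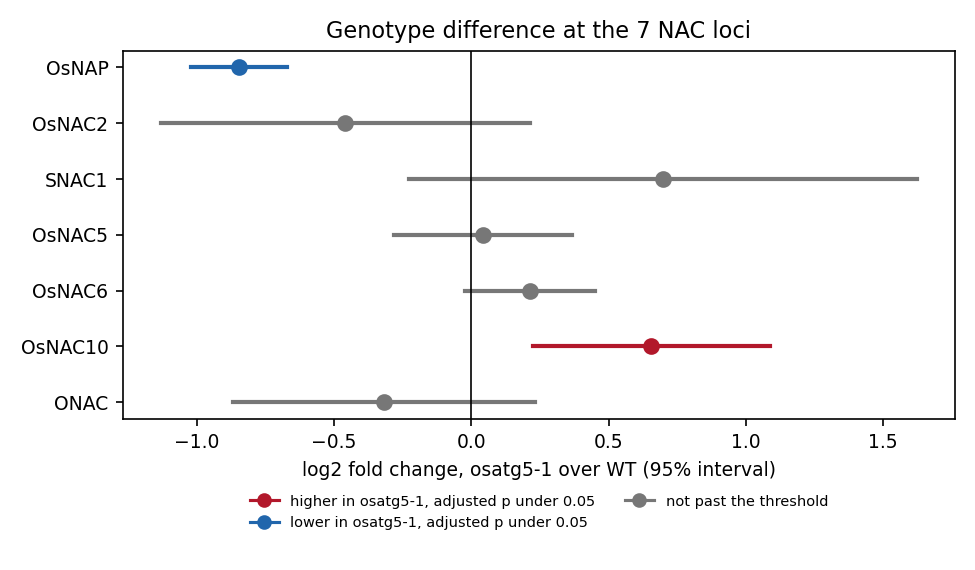
Log2 fold change of osatg5-1 over WT (x axis) for each NAC gene, with its 95% interval from the edgeR fit; colour marks whether the adjusted p was under 0.05. The interval of OsNAP, -1.02 to -0.67, and that of OsNAC10, 0.23 to 1.09, exclude 0, and the interval of SNAC1 is the widest.

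**Figure D3:**
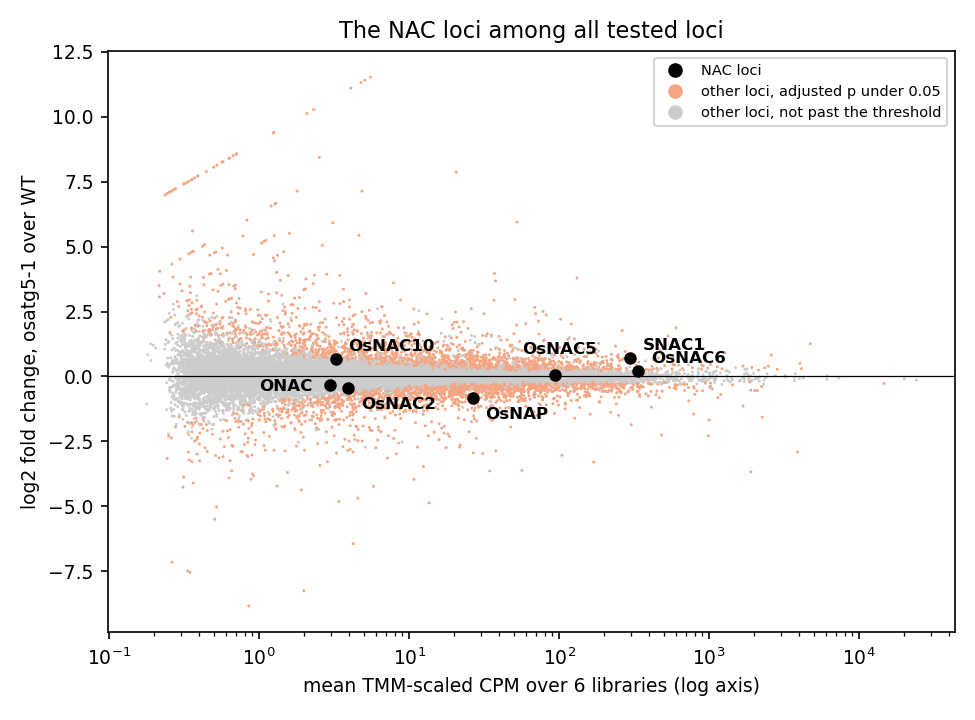
Log2 fold change of osatg5-1 over WT (y axis) against mean TMM-scaled CPM over the 6 libraries (log x axis) for all 23074 tested loci, with the NAC genes in black. OsNAP lies among the called lower loci, and SNAC1 and OsNAC6 lie at the abundant end; the fold changes of loci without counts in a genotype depend on the prior count that edgeR adds.

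Ratios between members inside a library do not depend on the scaling between libraries; those with OsNAP and OsNAC10 restate their calls and are given as a description. The FPKM of OsNAC10 was 21.9%, 24.2% and 19.5% of that of OsNAP in the osatg5-1 libraries, against 6.20%, 8.12% and 8.86% in the WT libraries. OsNAP in turn stood at 6.46%, 5.99% and 5.34% of the FPKM of OsNAC6 in osatg5-1, against 15.7%, 10.9% and 11.0% in WT. The FPKM of SNAC1 relative to OsNAC6 was 104%, 129% and 236% in osatg5-1 and 58.5%, 118% and 150% in WT. Such ratios show unequal change, not which partner changed.

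Per length of transcript, the stress factors SNAC1 and OsNAC6 were the most abundant of the 7 in mature leaves of both genotypes. Levels between genes are given as FPKM, values that the authors scaled by the length of the gene model and by depth. SNAC1 averaged 249.8 ± 127 FPKM in osatg5-1 and 149 ± 77.1 FPKM in WT (SD, n = 3 each, here and for the following genes). OsNAC6 averaged 157 ± 11.3 FPKM in osatg5-1 and 131 ± 19.3 FPKM in WT, so the top 2 places overlapped within each genotype. OsNAC5 followed at 43.0 ± 6.80 FPKM in osatg5-1 and 40.3 ± 7.66 FPKM in WT, below every library of SNAC1 and OsNAC6. The senescence factor OsNAP came next, at 9.29 ± 0.358 FPKM in osatg5-1 and 16.1 ± 0.858 FPKM in WT, without overlap with its neighbours in the order. The lowest 3 were rare. OsNAC10 was at 2.03 ± 0.297 FPKM in osatg5-1 and 1.24 ± 0.166 FPKM in WT. OsNAC2 was at 1.91 ± 0.935 FPKM in osatg5-1 and 2.55 ± 0.458 FPKM in WT. ONAC was at 1.71 ± 0.420 FPKM in osatg5-1 and 2.08 ± 0.499 FPKM in WT. These 3 overlapped in osatg5-1, whereas in WT OsNAC10 was below every library of OsNAC2 and ONAC. OsNAC10 was thus rank 5 of 7 in osatg5-1 and rank 7 in WT, a change of order that was not tested.

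**Figure D4:**
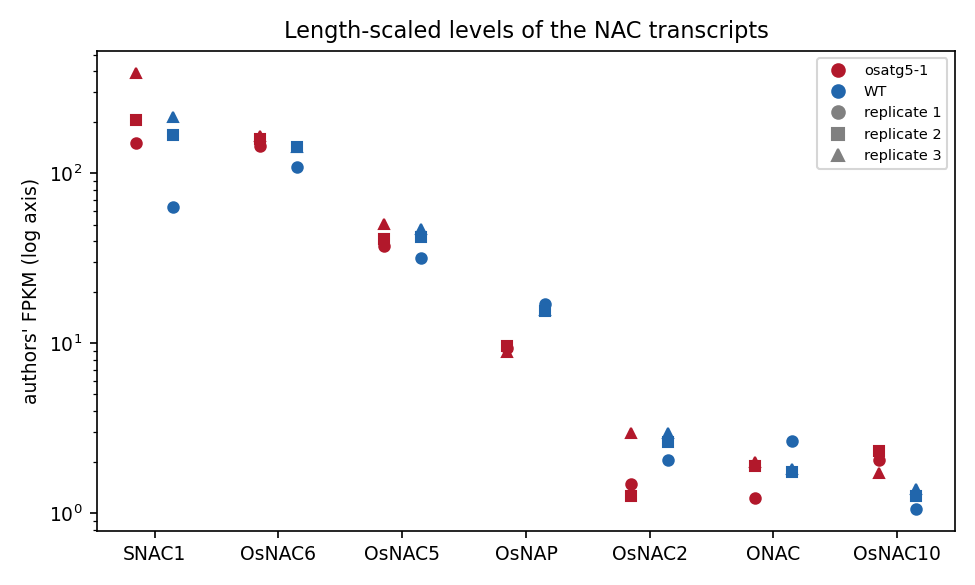
The authors' FPKM (log y axis) of each NAC gene in each library, osatg5-1 in red left of WT in blue, ordered by the WT mean. The libraries run from 1.06 FPKM for OsNAC10 in WT to 393 FPKM for SNAC1 in osatg5-1, and SNAC1 and OsNAC6 overlap at the top.

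OsNAP and SNAC1 marked the extremes of the spread between libraries of the same genotype. The SD of log2(CPM + 0.5) within genotypes was 0.06 for OsNAP, and 14.3% of the 14722 tested loci with a mean of at least 5 CPM had a smaller one. That of SNAC1 was 0.82, and 99.6% of those loci had a smaller one. OsNAC6 and OsNAC5 lay between, at 0.18 and 0.26, above 80.0% and 93.5% of those loci. The rarer genes OsNAC10, ONAC and OsNAC2, under 5 CPM on average, had SDs of 0.18, 0.30 and 0.44.

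The 3 abundant stress factors also shared which libraries were low and high. For SNAC1, OsNAC5 and OsNAC6, the library numbered 1 was lowest and that numbered 3 highest in both genotypes, a pattern seen at 4.54% of the loci with a mean of at least 5 CPM and singled out after the values were known. The deviations of SNAC1 from the genotype mean were -0.62, -0.16 and 0.77 on the log2 scale in osatg5-1 replicates 1, 2 and 3, and -1.05, 0.34 and 0.71 in those of WT. OsNAC2 and OsNAC10 showed this order in WT only, and ONAC in osatg5-1 only. OsNAP showed it in neither genotype, since WT replicate 1 was its highest WT library and osatg5-1 replicate 3 its lowest of all. Library totals rose from replicate 1 to 3 in osatg5-1, at 31296258, 36280885 and 39351357 counts. In WT they were 31628507, 31677943 and 30927816, with replicate 3 the smallest. Whether depth played a part was not tested. Field position, sampling time and RNA quality are not in the labels, and their part was not tested.

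**Figure D5:**
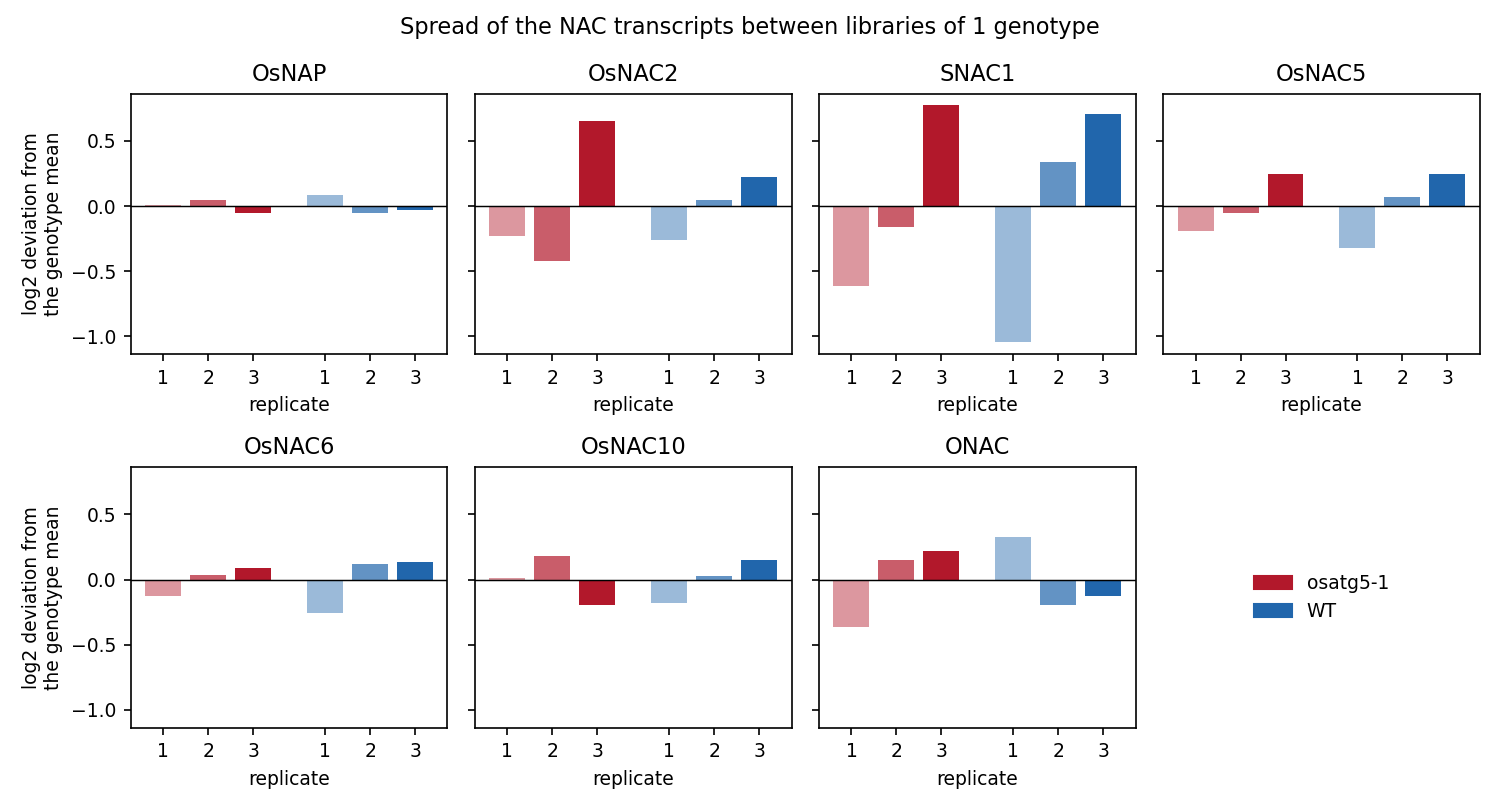
Deviation of each library from its genotype's mean on the log2(CPM + 0.5) scale (y axis) for each NAC gene, with osatg5-1 replicates in red left of WT replicates in blue. SNAC1 runs from -0.62 to 0.77 in osatg5-1 and from -1.05 to 0.71 in WT, whereas every OsNAP deviation lies between -0.06 and 0.08.

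No other member of the list was among the loci closest to OsNAP in pattern over the libraries. Likeness was taken as the root mean square difference of log2(CPM + 0.5) over the 6 libraries, after each locus's own mean was removed, among 14721 loci with a mean of at least 5 CPM. OsNAC5 had rank 11307, OsNAC6 rank 12506 and SNAC1 rank 14540. The rarer members, ranked among 19725 loci with a mean of at least 1 CPM, stood at 4650 for ONAC, 10052 for OsNAC2 and 18217 for OsNAC10. Taken from the same 6 libraries, these ranks partly restate the genotype differences and spreads above, and are given as a description. The loci most like OsNAP were LOC_Os01g37470 on chromosome 1, with a difference of 0.0351, and LOC_Os02g17304 on chromosome 2, with 0.0430. LOC_Os01g37470 was at 12.9, 13.2 and 11.6 CPM in osatg5-1, against 23.8, 21.2 and 22.9 CPM in WT, and LOC_Os02g17304 at 11.8, 12.0 and 12.2 CPM in osatg5-1, against 23.1, 21.6 and 21.3 CPM in WT. The files and the name table annotate neither locus, and no function is implied by the likeness.

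Of the 14 nearest tested loci on either side of the NAC genes, by locus number, 1 was higher, 3 were lower and 10 were not called. The 4 called make 28.6%, where 16.4% of all tested loci were called, a difference that was not tested. OsNAP had a neighbour 20 numbers higher that was also lower, though by less, at 30.6 CPM in osatg5-1 and 39.1 CPM in WT (log2 fold change -0.35 ± 0.08 SE, edgeR adjusted p = 0.0143). Its neighbour 10 numbers lower was not called (log2 fold change -0.31, edgeR adjusted p = 0.62). SNAC1 had a neighbour 10 numbers higher that was lower in the mutant, at 83.0 CPM in osatg5-1 and 158 CPM in WT (log2 fold change -0.92 ± 0.07 SE, edgeR adjusted p = 3.98e-05). The neighbour of OsNAC6 10 numbers lower was lower in the mutant, at 5.75 CPM in osatg5-1 and 8.91 CPM in WT (log2 fold change -0.63 ± 0.13 SE, edgeR adjusted p = 0.00725). That of OsNAC5 90 numbers higher was higher in the mutant, at 70.1 CPM in osatg5-1 and 59.7 CPM in WT (log2 fold change 0.23 ± 0.07 SE, edgeR adjusted p = 0.0418). The NAC gene itself was not called beside either of these. Neither tested neighbour of OsNAC10 was called (log2 fold changes 0.25 and -0.03, edgeR adjusted p = 0.30 and 0.82). Whether counting used strand is not stated, so reads of any overlapping neighbours cannot be assigned with certainty.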

How the data were processed

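Per the labels' protocols, RNA of mature leaves was extracted with a column kit and made into stranded, hexamer-primed mRNA libraries. HISAT2 and the build IRGSP-1.0 appear in the submitters' processing notes; which program counted reads, and whether by strand, is not given in the sources used here. The authors deposited raw counts per locus for 6 libraries, and FPKM per library, per the file headers; titles gave genotype and replicate number. Loci with 2 counts outnumbered those with 1 count by 2.58 to 2.83 times, so counts may not be independent molecules. In a library, 3 counts equal 0.0762 to 0.0970 CPM.

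Loci passing filterByExpr were tested with edgeR 4.0.16 (R 4.3.3, quasi-likelihood, TMM scaling, genotype as the only term), with Benjamini-Hochberg adjustment over all 23074. The SE is the log2 fold change divided by the square root of F. The labels do not tie replicates to separate plants, so p-values reflect only library-to-library spread, possibly technical. Alternatives were RLE or no scaling, other filters, DESeq2 1.42.0, limma 3.58.1 (voom, and on log2(FPKM + 1)), a replicate block and leaving out each library.

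The members, lists and tests were chosen with earlier results of these data known. Named were the 7 members and the 2 loci most like OsNAP. The ranking by spread and the library order were added after the values were seen. Gene names come from the member list. A RefSeq name table (ASM3414082v1) holds 3 of the 7 names (OsNAC2, OsNAC5 and OsNAC6), each on the chromosome given by the locus number, but only 1 ID of the count table. OsATG5 itself, chlorophyll breakdown and abscisic acid genes, the remaining NAC family, leaf markers and member sequences are therefore not analysed here.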

Additional observations from a re-analysis of the deposited data

How the results depend on the processing

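OsNAP was called lower under all 8 alternatives of scaling, filter, unit, tool and block, at log2 fold changes of -0.85 to -0.73, and with each library left out. OsNAC10 kept its direction, but missed the threshold with limma-voom (0.65, adjusted p = 0.0518) and with the replicate block (0.65, adjusted p = 0.0645), and ranged from 0.56 to 0.77 with 1 library left out. The number of NAC genes called was 1 with limma-voom, and 1 to 3 with 1 library left out; the cause was not tested. Among the alternatives run, SNAC1 passed only with the replicate block (0.75, edgeR adjusted p = 0.00929). That block was not taken as a pairing, because no label says that a shared number marks a plant, plot or day. The deviations of libraries with the same number correlated at 0.0540, -0.0192 and 0.13 over loci. Of the 6 libraries, 3 correlated best with their own number. These values do not decide whether the numbers pair the libraries. With the block 3765 loci were called, against 3793 without it. With 1 library left out, OsNAC2 ranged from -0.93 (called, without osatg5-1 replicate 3) to -0.22, SNAC1 from 0.22 to 1.06, OsNAC5 from -0.10 to 0.17, OsNAC6 from 0.09 to 0.28 and ONAC from -0.44 to -0.11. OsNAC5, never called, changed sign without WT replicate 1 (-0.10) and without osatg5-1 replicate 3 (-0.08). Whole-table calls ranged from 3638 to 4153 over the other alternatives and from 2567 to 3500 with 1 library left out. OsNAC10, OsNAC2 and ONAC rest on 60 to 205 counts per library. How far such low counts limit their precision was not tested. SNAC1, on 3047 to 22969 counts per library, had the largest SE of the list (0.42).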
